A study of Mus musculus with 6 samples.

Results

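The enzymes that handle arginine in macrophages were compared between both macrophage subsets of injured mouse muscle. The set holds 10 genes: Arg1, Arg2, Nos2, Ass1, Asl, Odc1, Gch1, Sat1, Srm and Sms. Each gene was read from the probe set whose annotation names that gene alone, and where a gene had several such probe sets, from the one with the highest mean over the 6 arrays. By this rule 8 of the 10 genes were measured, among 19938 genes in all. Ass1 and Sms were represented only by probe sets shared with a related gene, 2 for each, and these are described separately as shared.

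Ly6C- F4/80high macrophages were set against Ly6C+ F4/80low macrophages. Both came from the tibialis anterior muscle 2 days after an injection of cardiotoxin, a snake toxin that destroys muscle fibres. CD45+ cells were taken with magnetic beads and then sorted by antibodies to both surface antigens. All 3 mice were of the strain B6.129P2-Lyzstm1(cre)Ifo/J, which carries Cre recombinase at the lysozyme locus and so expresses it in myeloid cells, and both subsets share this allele. No uninjured muscle, later day or floxed target gene enters the comparison, and no source used here gives the age of the mice. Each mouse gave 1 array per subset, so there were 3 arrays per subset. Values below are log2 expression as the authors normalized them, arrays are listed in the order of mice 1, 2 and 3, and each difference is Ly6C- F4/80high minus Ly6C+ F4/80low with its standard error (SE).

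Macrophages use arginine in competing ways. Arginase splits it into urea and ornithine, the precursor of polyamines and proline, whereas inducible nitric oxide synthase turns it into nitric oxide and citrulline and needs tetrahydrobiopterin as a cofactor. Citrulline can be rebuilt into arginine by argininosuccinate synthase and lyase, and polyamines are made from ornithine by ornithine decarboxylase, spermidine synthase and spermine synthase. High arginase is a known feature of macrophages in tissue repair, and high nitric oxide synthase one of macrophages activated by interferon and bacterial products.

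The sorted antigens matched their genes. Both probe sets that Ly6c1 shares with Ly6c2 were lower, at -3.39 and -3.18, and Adgre1, the gene of the macrophage antigen used in the sort, was higher by 0.73 (SE 0.07). Ptprc, the gene of the CD45 used in the bead selection, averaged 9.72 in the Ly6C- F4/80high cells and 10.36 in the Ly6C+ F4/80low cells. Its difference was -0.64 (SE 0.07, limma adjusted p = 0.000127). All 9 macrophage markers, among them Csf1r, Cd68 and Mertk, lay above the background on all 6 arrays. A background of 5.44 was set at the 95th percentile of the mean levels of 1194 olfactory and vomeronasal receptor genes. Of 13 neutrophil markers 3 were lower and 1 higher in the Ly6C- F4/80high cells, beside 14.3% of all genes lower and 19.5% higher. Of the 13, 4 lay above the background on all 6 arrays. Ly6g, the antigen that defines neutrophils, and Cxcr2 were called lower but lay under the background on all 6. Mmp8, a collagenase gene, averaged 9.76 in the Ly6C- F4/80high cells and 9.03 in the Ly6C+ F4/80low cells. Csf3r, the receptor gene for granulocyte colony-stimulating factor, averaged 9.27 and 9.30 in the same order of subsets. Of 8 dendritic cell markers 4 were lower and none higher, beside 14.3% of all genes lower and 19.5% higher. Their summed log2 level was 41.4 to 42.1 in the Ly6C- F4/80high cells, against 45.1 to 45.6 in the Ly6C+ F4/80low cells. Among them Cd209a differed by -1.19 and Siglech by -0.72, while Xcr1 and Clec9a were under the background on all 6 arrays. The part of these cells in the results below was not tested. In these sorted bulk samples, fewer cells of a type and less RNA per cell cannot be told apart.

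Among the 8 measured enzymes limma called 4 at an adjusted p under 0.05 over all genes. Arg1 was higher in the Ly6C- F4/80high cells, and Arg2, Nos2 and Gch1 were lower. Across all genes 33.8% were called, 19.5% higher and 14.3% lower, a share that the count of 4 of 8 is not shown to exceed. The median difference of the 8 was -0.12, against -0.06 over all genes. For 6 of the 8 no array of one subset reached into the range of the other, as held for 48.1% of all genes, and the exceptions were Odc1 and Sat1. When all arrays were set to a common median, the called enzymes were Arg1, Asl and Srm on the higher side and Gch1 on the lower, and the higher share of all called genes was 73.4%, against 57.6% as deposited. With the mouse as a block 5 of the 8 were called, against 30.9% of all genes.

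**Figure D1:**
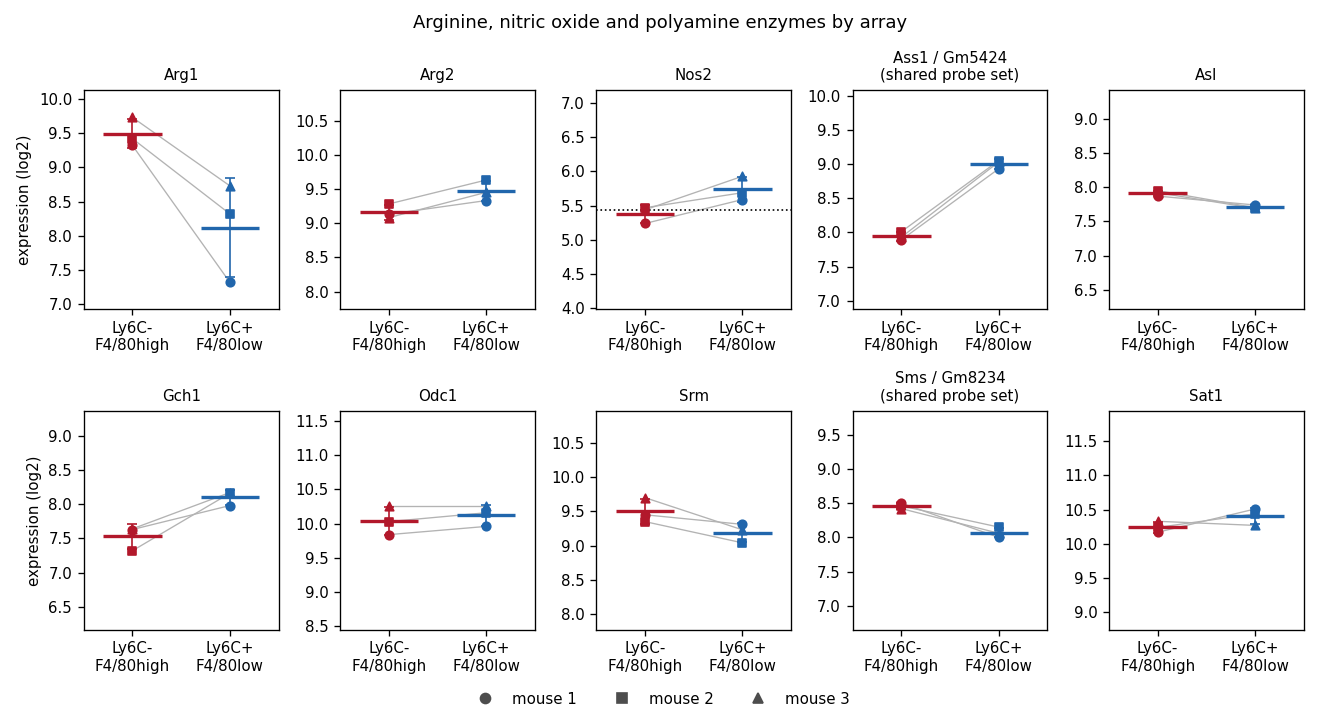
Log2 expression of the 10 enzymes on each array, with Ly6C- F4/80high cells left and Ly6C+ F4/80low cells right. The Ass1 and Sms panels show probe sets shared with Gm5424 and Gm8234. For Ass1 it is the one with the higher mean, and for Sms the one with the larger difference. Symbols mark the mice, grey lines join arrays of a mouse, horizontal bars are means, error bars are SD (n = 3), all panels span the same log2 range, and the dotted line in the Nos2 panel is the background of 5.44. Arg1 was the enzyme whose arrays spread most, with the lowest at 7.32 in the Ly6C+ F4/80low cells of mouse 1.

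Arg1, the cytosolic arginase, had the largest difference of the 8 enzymes. It stood at 9.32, 9.42 and 9.73 on the Ly6C- F4/80high arrays, against 7.32, 8.32 and 8.73 on the Ly6C+ F4/80low arrays. Every Ly6C- F4/80high array lay above every Ly6C+ F4/80low array. The means were 9.49 ± 0.21 in Ly6C- F4/80high cells and 8.12 ± 0.72 in Ly6C+ F4/80low cells (SD, n = 3 each), a 2.57-fold higher level in the Ly6C- F4/80high cells. The difference was 1.36 (SE 0.29, limma adjusted p = 0.00462), with a 95% interval of 0.73 to 2.0. Only 1.17% of all genes had a larger absolute difference.

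The Ly6C+ F4/80low arrays disagreed on how much Arg1 they held. Their SD of 0.72 was exceeded by 0.0201% of all genes. Taken mouse by mouse, Arg1 was higher by 1.99, 1.10 and 1.0. Without the mouse 1 array of Ly6C+ F4/80low cells it was 0.96 (limma adjusted p = 0.00153). That array also held the highest level of Dcn, a fibroblast proteoglycan, at 6.79, against 5.70 and 5.55 in mice 2 and 3. Of 7 fibroblast markers 6 were called lower, beside 14.3% of all genes. The summed log2 level of the 7 was 35.5 to 35.9 in the Ly6C- F4/80high cells, against 38.1 to 41.1 in the Ly6C+ F4/80low cells. Lum and Dpt were under the background on all 6 arrays. The selection of CD45+ cells should remove fibroblasts, and their part in the Arg1 values was not tested. Arg1 missed the threshold under a trended robust prior (limma adjusted p = 0.0507), which changes only the estimate of its variance.

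Arg2, the mitochondrial arginase, went the other way by a small amount. Its levels were 9.13, 9.28 and 9.08 in the Ly6C- F4/80high cells, against 9.33, 9.63 and 9.45 in the Ly6C+ F4/80low cells, so the subsets were separated by a narrow gap. The difference was -0.31 (SE 0.10, limma adjusted p = 0.0332), 1.24-fold lower. It had the same sign in all mice, at -0.20, -0.34 and -0.37. The call was lost without the mouse 1 (limma adjusted p = 0.095) or mouse 3 array of Ly6C- F4/80high cells (limma adjusted p = 0.114), and without the mouse 2 (limma adjusted p = 0.108) or mouse 3 array of Ly6C+ F4/80low cells (limma adjusted p = 0.0682).

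Nos2, the inducible nitric oxide synthase, was near the background in both subsets. It read 5.24, 5.47 and 5.44 on the Ly6C- F4/80high arrays, against 5.59, 5.69 and 5.93 on the Ly6C+ F4/80low arrays. Of the arrays, 2 of 3 in the Ly6C- F4/80high cells and 3 of 3 in the Ly6C+ F4/80low cells exceeded the background of 5.44, that of mouse 3 in the Ly6C- F4/80high cells only past the second decimal, and none of the 6 exceeded 6.16, the 99th percentile of the receptor genes. The difference was -0.35 (SE 0.11, limma adjusted p = 0.0273), and RMA compresses differences this close to the background. The Nos2 call was lost without the mouse 1 (-0.28, limma adjusted p = 0.103) or mouse 3 array of Ly6C- F4/80high cells (-0.38, limma adjusted p = 0.0525), without the mouse 3 array of Ly6C+ F4/80low cells (-0.25, limma adjusted p = 0.0931), and after quantile normalization (-0.27, limma adjusted p = 0.0872).

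Gch1, the rate-limiting enzyme of tetrahydrobiopterin synthesis, was lower. It measured 7.63, 7.32 and 7.64 in the Ly6C- F4/80high cells, against 7.98, 8.16 and 8.17 in the Ly6C+ F4/80low cells, with no overlap. The difference was -0.57 (SE 0.10, limma adjusted p = 0.00216), 1.49-fold lower, and it was called under each of the 18 other settings, where it ranged between -0.68 and -0.44.

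Ass1, argininosuccinate synthase, makes the first step from citrulline back to arginine. Its probe sets are shared with Gm5424, so the values cannot be given to Ass1 alone. The first read 7.89, 8.01 and 7.93 in the Ly6C- F4/80high cells, against 8.93, 9.05 and 9.03 in the Ly6C+ F4/80low cells. Both subsets were tightly grouped and far apart. The difference was -1.06 (SE 0.07, limma adjusted p = 0.000388 over all probe sets), 2.09-fold lower, where 19.1% of all probe sets were called. The second probe set gave -1.0 (SE 0.08, limma adjusted p = 0.00061). Both were called under all 16 settings tried for them, with adjusted p-values of at most 0.0274 in limma. Asl, the lyase of the next step, did not share this direction, with 7.87, 7.95 and 7.92 in the Ly6C- F4/80high cells, against 7.74, 7.70 and 7.69 in the Ly6C+ F4/80low cells. Its difference was 0.20 (SE 0.07, limma adjusted p = 0.0548), and it passed the threshold with a common median (0.28, limma adjusted p = 0.0118), without the 50% of genes of lowest mean (limma adjusted p = 0.02) and with a trended robust prior (limma adjusted p = 0.0351).

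Promoter windows of 250 bases before and 50 after the start site were found in RefSeq (GRCm38.p6) for Ass1, Odc1, Gch1, Sat1 and Sms, and not for Arg1, Arg2, Nos2, Asl and Srm. The windows of Ass1 and Gch1 are shown because both fell on the lower side, and an Sms window because its shared probe sets were higher. Capitals mark the E-box CACGTG, the cyclic AMP response element-like TGACGCAA and the CCAAT box CCAAT, searched on both strands. The TATA motif TATAAA and the GC box GGGCGG were searched too and are not marked. GGGCGG lay in the windows of Ass1, Odc1, Gch1 and Sat1 and in the Sms window not shown, beside 35.7% of all windows. TATAAA lay in that of Gch1 at -188, beside 13.6% of all windows.
Ass1, chr2:31470020-31470319, plus strand: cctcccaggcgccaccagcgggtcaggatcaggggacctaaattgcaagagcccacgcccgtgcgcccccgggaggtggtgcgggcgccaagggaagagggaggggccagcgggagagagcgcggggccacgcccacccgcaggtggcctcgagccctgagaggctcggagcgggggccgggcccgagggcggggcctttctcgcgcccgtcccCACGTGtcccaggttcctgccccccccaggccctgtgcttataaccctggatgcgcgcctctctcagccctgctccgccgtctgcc
Gch1, chr14:47189364-47189663, minus strand: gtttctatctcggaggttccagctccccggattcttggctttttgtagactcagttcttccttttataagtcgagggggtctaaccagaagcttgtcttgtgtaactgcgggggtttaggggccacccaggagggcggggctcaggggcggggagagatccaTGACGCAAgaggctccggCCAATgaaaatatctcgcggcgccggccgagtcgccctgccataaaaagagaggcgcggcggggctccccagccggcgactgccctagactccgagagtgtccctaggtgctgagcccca
Sms, chrX:157492238-157492537, minus strand: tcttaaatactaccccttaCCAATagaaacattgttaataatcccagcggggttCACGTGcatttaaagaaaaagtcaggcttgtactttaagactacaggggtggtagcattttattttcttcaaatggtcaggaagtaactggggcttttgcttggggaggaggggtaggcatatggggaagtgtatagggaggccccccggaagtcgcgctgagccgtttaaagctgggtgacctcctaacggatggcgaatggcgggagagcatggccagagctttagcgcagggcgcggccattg
Ass1 held an E-box starting at position -36 from the start site. Gch1 held the element TGACGCAA at -88 and a CCAAT box at -70. The Sms window held an E-box at -196 and a CCAAT box at -231, and the other Sms window held none of the 3 motifs, nor did those of Odc1 and Sat1. Among all 32851 windows 7.15% held CACGTG, 0.49% held TGACGCAA and 37.4% held CCAAT. The E-box was thus present in an enzyme gene of each direction, and a match of letters shows no binding.

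Among the polyamine enzymes of the set, log2 differences lay between -0.17 for Sat1 and 0.39 for a probe set shared by Sms. All were smaller in size than that of Arg1. Smox, a polyamine enzyme outside the set that is described below, differed by -1.43. Odc1, ornithine decarboxylase, was at 9.84, 10.03 and 10.26 in the Ly6C- F4/80high cells, against 9.96, 10.16 and 10.26 in the Ly6C+ F4/80low cells. These ranges overlapped almost fully. The difference of -0.08 (SE 0.12, limma adjusted p = 0.613) had a 95% interval of -0.35 to 0.18, and the other Odc1 probe set gave 0.02 (SE 0.13). Srm, spermidine synthase, read 9.45, 9.35 and 9.70 in the Ly6C- F4/80high cells, against 9.31, 9.04 and 9.23 in the Ly6C+ F4/80low cells. Its difference of 0.31 (SE 0.11, limma adjusted p = 0.0523) missed the threshold. It passed under 6 of the 18 other settings, among them the mouse as a block (limma adjusted p = 0.039) and a common median (limma adjusted p = 0.0243). Over all of these settings the limma adjusted p lay between 0.0229 and 0.237.

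Sms, spermine synthase, shares its probe sets with Gm8234. The probe set with the larger difference read 8.50, 8.46 and 8.42 in the Ly6C- F4/80high cells, against 8.0, 8.15 and 8.06 in the Ly6C+ F4/80low cells, a difference of 0.39 (SE 0.07, limma adjusted p = 0.0128 over all probe sets). The other gave 0.28 (SE 0.07, limma adjusted p = 0.0332). Every mouse had a positive value on both. Neither call held with the mouse as a block (limma adjusted p = 0.0508 and 0.0814). Without the mouse 1 array of Ly6C- F4/80high cells both were lost too (limma adjusted p = 0.0507 and 0.0928), and leaving out any other single array ended the call of the second probe set (limma adjusted p between 0.057 and 0.0925). Sat1, which acetylates polyamines for breakdown and export, read 10.17, 10.24 and 10.33 in the Ly6C- F4/80high cells, against 10.51, 10.44 and 10.27 in the Ly6C+ F4/80low cells. With overlapping arrays its difference was -0.17 (SE 0.09, limma adjusted p = 0.165, 95% interval -0.36 to 0.03).

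**Figure D2:**
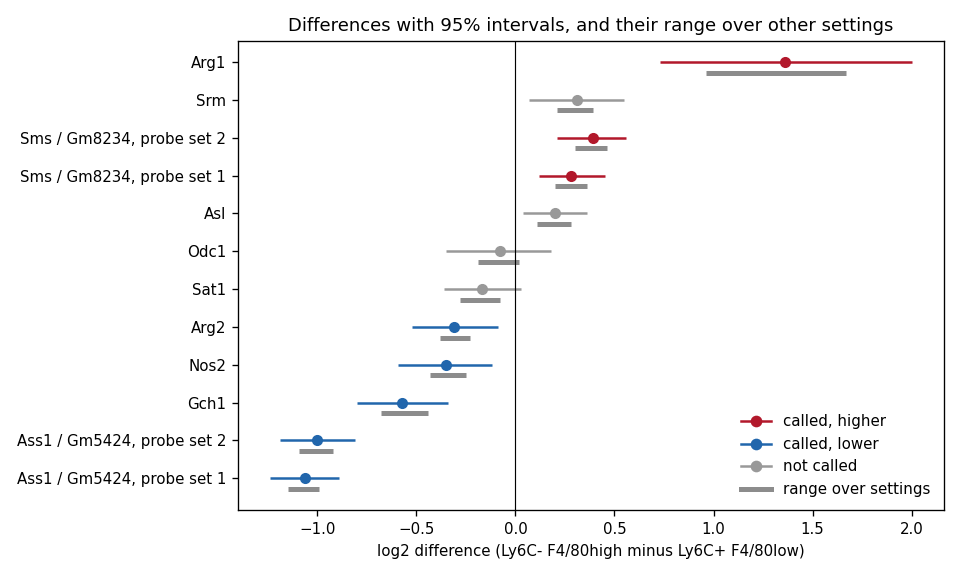
Log2 differences (Ly6C- F4/80high minus Ly6C+ F4/80low) of the enzymes, with 95% intervals from limma as thin lines and the range of the estimate over the other settings as thick grey lines. For Ass1 and Sms, probe set 1 is the one with the higher mean. Arg1 lies at 1.36 and the Ass1 probe sets at -1.06 and -1.0, and Odc1 is the enzyme whose range over settings crosses zero.

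Arg1 and Odc1 were lowest in mouse 1 and highest in mouse 3 in both subsets. The other 6 enzymes did not keep the same order of mice in both subsets, and 16.7% of all genes did. The genes whose pattern over the 6 arrays was closest to that of Arg1, by Euclidean distance after subtracting each gene's mean, were Pdpn (distance 0.411), Sel1l3 (0.566) and Pf4 (0.62). Pdpn, which encodes the membrane glycoprotein podoplanin, read 11.23, 11.40 and 11.46 in the Ly6C- F4/80high cells, against 9.63, 10.30 and 10.65 in the Ly6C+ F4/80low cells. Mouse 1 was lowest in both, which the choice of Pdpn by its closeness to Arg1 on these same arrays favours. For Gch1, which had the most negative difference of the called enzymes with a probe set of their own, the closest were Il15 (0.138), a cytokine gene, Tpst1 (0.167), a tyrosine sulfotransferase gene, and Eps8 (0.183), an actin regulator gene. With 6 arrays in 2 subsets, this distance covers the difference between subsets as well as the spread within them.

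The genes around the enzymes were taken from 4 lists of transporters and enzymes with 53 genes, of which 46 were measured. The Ly6C- F4/80high cells had 15 of them higher and 7 lower, and 24 did not pass the test, where 19.5% of all genes were higher, 14.3% lower and 33.8% called in either direction. The median difference was 0.13, against -0.06 over all genes. No test compared these counts, or those of the single lists below, with the shares over all genes. The lists were chosen with earlier results of these data known.

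Arginine supply and other uses of arginine went both ways: of 18 genes 6 were higher and 4 lower, and 8 missed the threshold (median -0.08), beside 33.8% of all genes called. Gatm, which starts creatine synthesis by moving the amidino group of arginine onto glycine, read 10.22, 10.19 and 10.05 in the Ly6C- F4/80high cells, against 7.93, 7.99 and 7.39 in the Ly6C+ F4/80low cells. The subsets were more than 2 units apart in every mouse, the difference was 2.39 (SE 0.14, limma adjusted p = 2.3e-06), and the level was 5.23-fold higher. Gamt, the enzyme that completes creatine, read 8.33, 8.16 and 8.42 in the Ly6C- F4/80high cells, against 7.37, 7.11 and 7.12 in the Ly6C+ F4/80low cells. Its level was 2.14-fold higher and the difference 1.10 (SE 0.10, limma adjusted p = 3.02e-05). Slc25a15, the mitochondrial ornithine carrier, was higher by 0.40 (SE 0.07, limma adjusted p = 0.00184). Its means were 6.03 in the Ly6C- F4/80high cells and 5.64 in the Ly6C+ F4/80low cells. None of the Slc25a15 arrays exceeded the 99th percentile of the receptor genes.

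Slc7a1, the main carrier of arginine into many cells, was lower. It stood at 7.32, 7.37 and 7.57 in the Ly6C- F4/80high cells, against 8.14, 8.35 and 8.45 in the Ly6C+ F4/80low cells, a difference of -0.89 (SE 0.10, limma adjusted p = 0.000122). Slc7a2, the inducible arginine carrier of macrophages, showed a difference of 0.19 (SE 0.08, limma adjusted p = 0.111). It passed the threshold with each of the 3 other scalings. These were quantile normalization (0.26, limma adjusted p = 0.0319), cyclic loess (0.27, limma adjusted p = 0.0333) and a common median (0.26, limma adjusted p = 0.03). Slc7a2 is named here after its values were seen, and none of its arrays exceeded the 99th percentile of the receptor genes. Slc7a6, an exchanger of arginine and neutral amino acids, differed by -0.31 (SE 0.08, limma adjusted p = 0.0172), a call lost without the mouse 1 or mouse 3 array of Ly6C- F4/80high cells (limma adjusted p = 0.0613 and 0.0652) or the Ly6C+ F4/80low array of mouse 1 (limma adjusted p = 0.0579). Slc7a7, another carrier of this list, went the other way, higher by 0.30 (SE 0.08, limma adjusted p = 0.0128). Its means were 10.18 in the Ly6C- F4/80high cells and 9.88 in the Ly6C+ F4/80low cells. Slc7a7 too is named after its values were seen, and no other setting is reported for it.

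Nos3, the endothelial nitric oxide synthase, was lower together with most of the listed endothelial markers. It read 5.46, 5.80 and 5.70 in the Ly6C- F4/80high cells, against 6.15, 5.97 and 6.19 in the Ly6C+ F4/80low cells, a difference of -0.45 (SE 0.10, limma adjusted p = 0.00755). Leaving out mouse 1 or mouse 3 ended the call (limma adjusted p = 0.0692 and 0.0643). Of 7 endothelial markers 6 were lower and none higher, beside 14.3% of all genes lower and 19.5% higher. Their summed log2 level was 38.1 to 38.9 in the Ly6C- F4/80high cells, against 42.8 to 44.1 in the Ly6C+ F4/80low cells. Cdh5, the endothelial cadherin, differed by -1.51 and Pecam1 by -0.82, whereas Tek, an endothelial receptor gene, was under the background on all 6 arrays. Kdr, the marker that was not called, averaged 6.60 in the Ly6C- F4/80high cells and 6.49 in the Ly6C+ F4/80low cells. Its difference was 0.11 (SE 0.13, limma adjusted p = 0.53). Nos3 exceeded 6.16, the 99th percentile of the receptor genes, on 0 of 3 Ly6C- F4/80high arrays and 1 of 3 Ly6C+ F4/80low arrays. The selection of CD45+ cells and the sort should remove endothelial cells, and their part in the Nos3 difference was not tested.

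**Figure D3:**
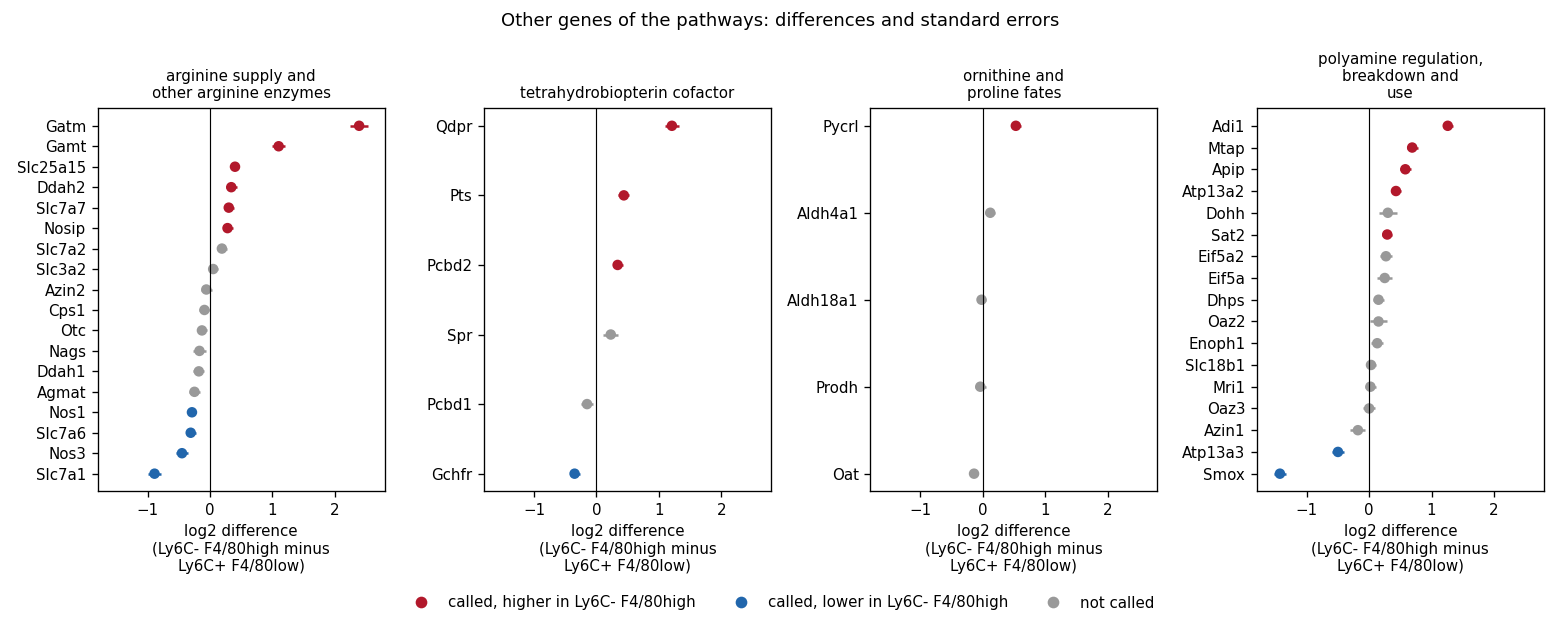
Log2 differences (Ly6C- F4/80high minus Ly6C+ F4/80low) of 46 genes in 4 lists, with points for the estimates and lines for the SE. Red points were called higher, blue ones called lower and grey ones not called. Gatm at 2.39 and Smox at -1.43 lie farthest from zero.

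Of the 6 measured tetrahydrobiopterin genes 3 were higher and 1 lower, with a median of 0.29, beside 19.5% of all genes higher and 14.3% lower. Qdpr, which recycles the cofactor after use, read 8.46, 8.40 and 8.80 in the Ly6C- F4/80high cells, against 7.33, 7.38 and 7.33 in the Ly6C+ F4/80low cells. Its difference of 1.21 (SE 0.11, limma adjusted p = 2.32e-05) was opposite in sign to that of Gch1. Pts, the second enzyme of synthesis, was higher by 0.44 (SE 0.09, limma adjusted p = 0.00485), and Pcbd2, a pterin dehydratase, by 0.34 (SE 0.08, limma adjusted p = 0.00927). Leaving out mouse 3 ended the calls of Pts (limma adjusted p = 0.069) and Pcbd2 (limma adjusted p = 0.0765), as did leaving out mouse 1 for Pts (limma adjusted p = 0.0505) and mouse 2 for Pcbd2 (limma adjusted p = 0.0758). Gchfr, the feedback regulator of Gch1, differed by -0.35 (SE 0.08, limma adjusted p = 0.00683), a call lost without mouse 3 (limma adjusted p = 0.0587). Its means were 5.70 in the Ly6C- F4/80high cells and 6.05 in the Ly6C+ F4/80low cells. None of its arrays exceeded the 99th percentile of the receptor genes.

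Of the 5 measured genes that link ornithine, proline and glutamate 1 was called, beside 33.8% of all genes. They were Oat, Aldh18a1, Pycrl, Prodh and Aldh4a1, enzymes of both synthesis and breakdown. Pycrl, a pyrroline carboxylate reductase gene, read 6.72, 6.67 and 6.59 in the Ly6C- F4/80high cells, against 6.15, 6.19 and 6.05 in the Ly6C+ F4/80low cells. It was higher by 0.53 (SE 0.08, limma adjusted p = 0.000584). The list had a median of -0.02.

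Polyamine regulation, breakdown and use had 5 higher, 2 lower and 10 uncalled genes among 17 (median 0.15), beside 33.8% of all genes called. Sat2, which is among the 5 higher genes, was under the background on every array. The 3 largest positive differences were all in methionine salvage, which recovers the methylthioadenosine released by spermidine and spermine synthase. Adi1 of this route read 8.05, 8.14 and 8.10 in the Ly6C- F4/80high cells, against 6.91, 6.86 and 6.73 in the Ly6C+ F4/80low cells, a 2.40-fold higher level and a difference of 1.26 (SE 0.08, limma adjusted p = 2.77e-06). Mtap, its first enzyme, was higher by 0.69 (SE 0.09, limma adjusted p = 0.000325), and the dehydratase gene Apip by 0.58 (SE 0.09, limma adjusted p = 0.000638). Mri1 and Enoph1 of the same route, named here after their values were seen, were not called, at 0.02 (SE 0.09) and 0.13 (SE 0.10).

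Smox, the spermine oxidase that turns spermine back into spermidine and releases hydrogen peroxide, was lower. It read 9.04, 9.30 and 9.34 in the Ly6C- F4/80high cells, against 10.55, 10.63 and 10.81 in the Ly6C+ F4/80low cells. The gap exceeded 1 unit in every mouse, and the level was 2.70-fold lower (difference -1.43, SE 0.10, limma adjusted p = 6.66e-06). Atp13a3, a polyamine carrier of the P-type ATPase family, differed by -0.50 (SE 0.09, limma adjusted p = 0.00144), though the mean of its probe sets gave -0.24 (limma adjusted p = 0.14). Atp13a2, another gene of this list, went the other way, higher by 0.43 (SE 0.08, limma adjusted p = 0.00201). Its means were 9.23 in the Ly6C- F4/80high cells and 8.81 in the Ly6C+ F4/80low cells. Atp13a2 is named after its values were seen, and no other setting is reported for it.

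**Figure D4:**
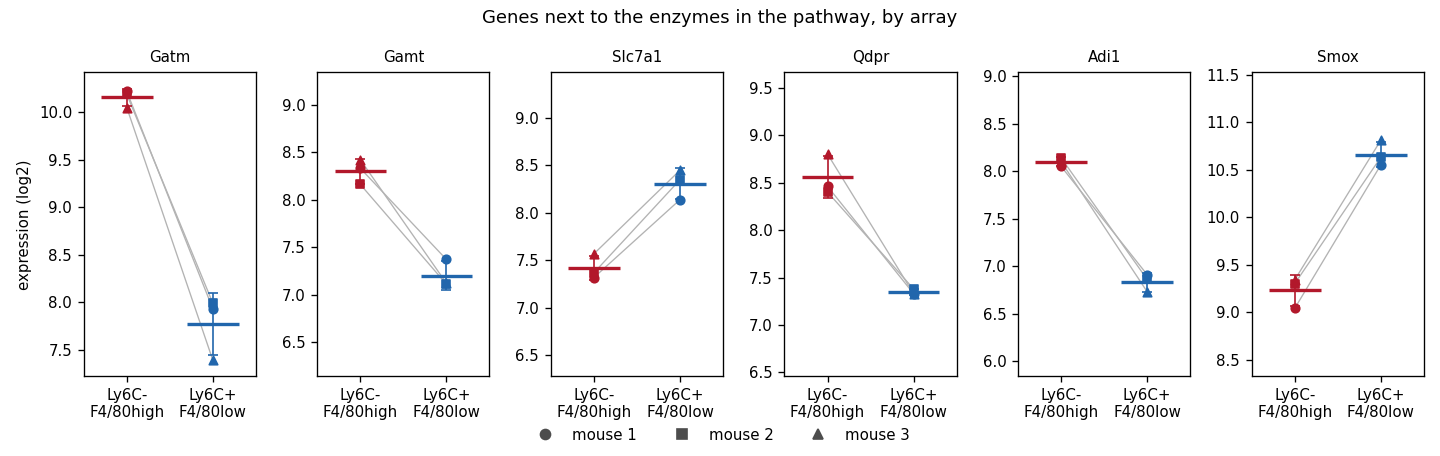
Log2 expression of 6 genes beside the enzymes in the pathway on each array, with Ly6C- F4/80high cells left and Ly6C+ F4/80low cells right. Symbols mark the mice, horizontal bars are means and error bars are SD (n = 3). Gatm, Gamt, Qdpr and Adi1 were higher and Slc7a1 and Smox lower in all 3 mice.

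Of 16 signals and factors known to act on Arg1 or Nos2, 7 were lower and 2 higher (median -0.21), beside 14.3% of all genes lower and 19.5% higher. Il13ra1, a receptor chain for interleukin 13, which raises Arg1, read 8.74, 8.58 and 8.63 in the Ly6C- F4/80high cells, against 9.66, 9.67 and 9.59 in the Ly6C+ F4/80low cells. It differed by -0.99 (SE 0.08, limma adjusted p = 1.07e-05), opposite in sign to Arg1. Cebpb, a transcription factor that acts on the Arg1 enhancer, differed by -0.67 (SE 0.10, limma adjusted p = 0.000797), also opposite to Arg1. Irf1, an interferon-induced factor needed for Nos2, differed by -0.66 (SE 0.12, limma adjusted p = 0.00195), the same sign as Nos2, which was near the background. The part of these genes in the Arg1 and Nos2 differences was not tested.

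Epas1, which encodes the hypoxia-inducible factor subunit HIF-2alpha, was higher. It read 7.86, 7.93 and 7.76 in the Ly6C- F4/80high cells, against 6.80, 6.96 and 6.71 in the Ly6C+ F4/80low cells, a difference of 1.03 (SE 0.09, limma adjusted p = 2e-05). Hif1a, the gene of HIF-1alpha, named here after its values were seen, went the other way at -0.50 (SE 0.09, limma adjusted p = 0.00244). Irf8, a myeloid lineage factor, differed by 0.29 (SE 0.09, limma adjusted p = 0.0284), opposite in sign to Nos2. The Irf8 call was lost after quantile normalization (0.23, limma adjusted p = 0.0788). It was lost too without the mouse 1 or mouse 3 array of Ly6C- F4/80high cells or the Ly6C+ F4/80low array of mouse 2 or 3 (limma adjusted p between 0.0663 and 0.105).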

How the data were processed

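Gene expression was measured on 6 arrays of total RNA from sorted muscle macrophages, 3 per subset. The deposited values are log2 expression made with RMA, per the submitters' processing notes; no source used here gives the software, settings or genome build, and the range of the values shows the log2 scale. RMA compresses low signals. Arrays have no read depth, so precision depends on how many there are.

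Of 35556 probe sets 21789 had 1 gene symbol, 1621 several and 12146 none in the annotation given with the values. The test was limma's moderated linear model (version 3.58.1, R 4.3.3), two-sided, with Benjamini-Hochberg adjustment over all 19938 genes, or over all probe sets for shared ones, and the method was tested on simulated data. Both subsets came from the same animals, per the labels, so the mouse number pairs the arrays. After subtracting subset means, paired arrays had correlations of 0.03, -0.08 and 0.09 over genes. The fit without the block was the main one because no source states a paired test.

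The enzymes and lists were chosen with earlier results of these data known. Named genes were the 10 enzymes, up to 3 called genes per direction and list, the 3 genes nearest in pattern to Arg1 and to Gch1, and label checks and markers. Some genes of the lists are not analysed here.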

Additional observations from a re-analysis of the deposited data

How the results depend on the processing

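The 18 other settings were the mouse as a replicate block, 3 scalings, a filter that left out 50% of genes, 2 choices of probe sets, array weights, a robust prior with a trend, and fits without single arrays or mice. Of 50 gene and shared probe set results, 35 kept their side of the threshold under every setting tried, Gch1, Ass1, Gatm and Smox among them, and of these all but Odc1, which was not called and ranged between -0.19 and 0.02, also kept their direction. The number of called enzymes fell to 2, Arg1 and Gch1, when all probe sets were tested together, and ranged between 2 and 5 when arrays or mice were left out. The number of called genes in the 5 lists, 31 in all, ranged between 20 and 33 there, and that of all genes between 3998 and 6887, with both minima without mouse 3. With the mouse as a replicate block 6164 genes, 5 enzymes and 32 list genes were called. The block ended the calls of the Sms probe sets (limma adjusted p = 0.0508 and 0.0814) and added that of Srm (limma adjusted p = 0.039). It changed no other call among the 50 results. With the background at the 99th percentile of the receptor genes 0 arrays showed Nos2 above it, against 5 at the 95th. The cause of these changes was not tested, except that testing all probe sets raises the number of tests and leaving out arrays lowers the number of samples.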
